A study of Anser cygnoides with 9 samples.

Results

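Zinc finger, homeobox, forkhead, SOX, bHLH and related gene families were followed in cultured ovarian granulosa cells of 40-week-old Sichuan white geese (Anser cygnoides). Members were all rows of the deposited table whose symbol starts with 1 of 23 family prefixes, with 1 row left out by the rule, which gave 33 of 1371 listed genes. Granulosa cells line the follicle around the oocyte and make steroids; here they came from small and large yellow follicles. The agonist group was treated with alarelin acetate, which stimulates the receptor for gonadotropin-releasing hormone (GnRH), and the antagonist group with cetrorelix acetate, which blocks that receptor. The blank group is labelled as the control. There were 3 libraries per group, and neither doses nor treatment times are given by the labels.

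Transcription factors bind short DNA sequences near genes and raise or lower their transcription. C2H2 zinc finger proteins form the largest class in vertebrates, and the ZBTB proteins join such fingers to a BTB domain through which they pair and recruit corepressors. HOX proteins give cells their position along the body axis and are kept on in many adult mesodermal tissues, whereas NKX, PAX, SOX and neurogenic bHLH factors mark particular embryonic lineages. A prefix is not a function, and some of the 33 are not known as DNA-binding factors. ZFP36L1 and ZC3H14 bind RNA, ZNF598 is a ubiquitin ligase that acts on collided ribosomes, and the yeast relative of ZNF593 works in ribosome assembly.

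The table gives TPM, in which reads are divided by transcript length and then scaled to a fixed total per library. The 1371 listed genes held 2.88% to 3.26% of that total in each library, so most of each transcriptome was not seen, and read depth is unknown. Members were found for 14 of the 23 prefixes. After the row left out by the rule, KLF, TBX, LHX, GATA, ATOH, OLIG, HES, HEY and NR gave none. GATA factors and NR-named nuclear receptors were therefore not analysed here. The RefSeq annotation of the Taihu goose holds 383 symbols with these prefixes. Of 12 granulosa markers only HSD17B1 was listed, at 0 to 1.09 TPM, so the cell type could not be checked from its markers, and of 6 endothelial markers only CDH5 was, at 0 to 0.121 TPM. None of the markers taken for theca, blood, oocyte or surface epithelium was listed. In such bulk samples fewer cells of a type and less RNA per cell cannot be told apart. The labels do not say whether replicates are different birds, cultures or repeat libraries, and the p-values speak only of the spread among the libraries, which may be technical.

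Most zinc finger members were expressed and most members of the developmental families were not. A gene was taken as expressed if 3 or more of the 9 libraries had at least 1 TPM, which 14 of the 33 members reached, or 42.4%, against 61.1% of the other 1338 listed genes. Another 12 members were low, with values above 0 that never passed 0.851 TPM, and 7 were listed at 0 in all 9 libraries, or 21.2%, against 3.36% of the other genes. Of the 14 zinc finger members (ZNF, ZBTB, ZFP and ZC3H) 11 were expressed, and of the 19 others 3 were, all of them HOX genes. Expressed members had a median level of 3.31 TPM over the 9 libraries and the other expressed genes one of 5.69 TPM. Only ZFP36L1, ZNF593 and ZBTB25 averaged 10 TPM or more.

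**Figure D1:**
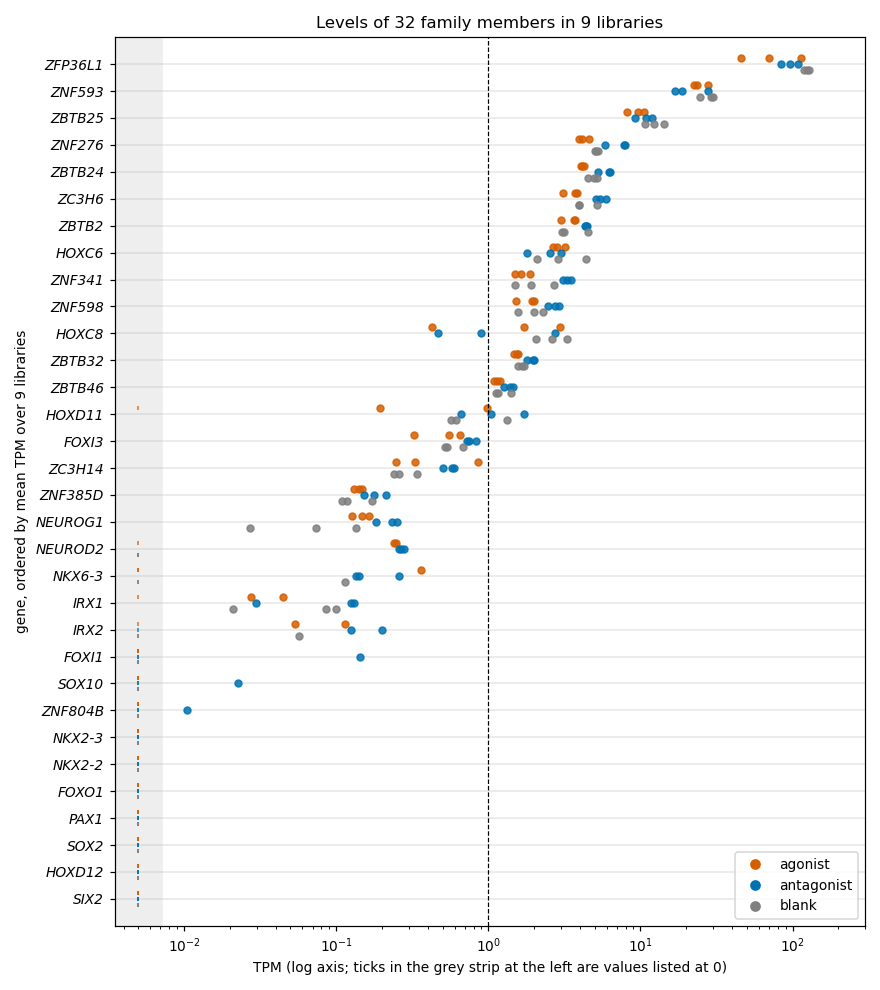
TPM of 32 of the 33 members in each of 9 libraries on a log axis, ordered by mean, with agonist, antagonist and blank libraries as separate colours, ticks in the grey strip for values listed at 0 and a dashed line at 1 TPM. ZFP36L1 stands highest at 46.1 to 128 TPM, 14 members reach 1 TPM in at least 3 libraries and 7 are listed at 0 throughout.

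ZFP36L1, which binds AU-rich elements in messenger RNAs and speeds their decay, had the highest level of all members and ranked 54 among all listed genes. It stood at 69.5, 114 and 46.1 TPM in the agonist libraries, at 109, 96.4 and 83.8 TPM in the antagonist libraries and at 119, 125 and 128 TPM in the blank libraries. The blank libraries lay close together and above all 6 treated libraries, while the agonist libraries were spread over more than the whole range of the antagonist libraries. It made up 44.4% to 65.9% of the summed TPM of all members.

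ZNF593 was next, at 28.0, 23.7 and 22.4 TPM in the agonist libraries, 16.9, 27.8 and 18.9 TPM in the antagonist libraries and 29.1, 30.0 and 24.8 TPM in the blank libraries. Antagonist replicate 2 lay among the blank libraries and the other two antagonist libraries were the lowest of all 9. ZBTB25, a BTB zinc finger protein, followed at 10.5, 9.61 and 8.14 TPM in agonist-treated cells, 9.15, 12.0 and 10.9 TPM in antagonist-treated cells and 14.3, 10.6 and 12.3 TPM in blank cells. All 3 agonist libraries were below all 3 blank libraries, and the antagonist libraries overlapped with both.

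All 5 ZBTB members were expressed, and the other 4 were lower than ZBTB25. ZBTB24 is needed for transcription of the chromatin factor CDCA7 in human and mouse cells and averaged 5.00 TPM over the 9 libraries. ZBTB2, a repressor of CDKN1A in human cells, averaged 3.80 TPM. ZBTB32, a repressor known from lymphocytes, and ZBTB46, which marks dendritic cells in mice, averaged 1.70 and 1.25 TPM. These last 2 had the smallest coefficients of variation over the 9 libraries among the expressed members, 11.0% each, and that of ZFP36L1 was 28.0%. ZBTB32 had no match in the RefSeq symbols; the other 32 members did.

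The 4 expressed ZNF members were ZNF593, ZNF276, ZNF341 and ZNF598, with means of 24.6, 5.51, 2.33 and 2.16 TPM. ZNF341 activates transcription of STAT3 in human cells. ZNF385D and ZNF804B were low, ZNF385D at 0.109 to 0.213 TPM in all 9 libraries and ZNF804B at 0.0105 TPM in antagonist replicate 1 and 0 in the other 8. Of the CCCH proteins, ZC3H6 was at 3.10 to 5.95 TPM and ZC3H14, which binds poly(A) tails, at 0.239 to 0.851 TPM.

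HOXC6, HOXC8 and HOXD11 were the expressed homeobox members. HOXC6 stood at 2.67, 2.81 and 3.19 TPM in the agonist libraries, 1.78, 3.0 and 2.55 TPM in the antagonist libraries and 4.38, 2.08 and 2.87 TPM in the blank libraries. Its groups overlapped in each pair. HOXC8, its neighbour in the RefSeq annotation, stood at 2.94, 1.71 and 0.425 TPM in agonist-treated cells, 2.75, 0.900 and 0.469 TPM in antagonist-treated cells and 3.27, 2.61 and 2.05 TPM in blank cells. Both analogue groups were spread widely, and agonist replicate 1 and antagonist replicate 1 lay within the range of the blank libraries. In each group the values fell from replicate 1 to replicate 3. Each analogue library lay below the blank library of the same replicate number. HOXD11 was at 0.193, 0.977 and 0 TPM in agonist-treated cells, 1.72, 1.04 and 0.666 TPM in antagonist-treated cells and 1.33, 0.615 and 0.567 TPM in blank cells, and it passed the limit of 1 TPM in exactly 3 libraries. HOXD12, the next gene of that cluster, was listed at 0 in all 9. HOXC8 overlaps an uncharacterised locus in the annotation.

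Among the genes listed at 0 in all 9 libraries were NKX2-2 and NKX2-3, which pattern the neural tube and pancreas and the spleen and gut, PAX1, a factor of the vertebral precursors, SIX2, which keeps kidney progenitors, and SOX2 of pluripotent and neural cells. FOXO1, a forkhead factor held in the cytoplasm by AKT signalling and known from granulosa cells of growing follicles in mice, was also listed at 0 in each library. H2AFX, a histone variant that every cell uses, was listed at 0 in all 9 as well. A listed 0 is therefore given as listed, not as absence of the transcript.

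Of the 12 low members 5 had values above 0 in all 9 libraries, 4 in some and 3 in a single library. FOXI3, a forkhead factor of ectodermal placodes, was the highest on average, at 0.656, 0.324 and 0.554 TPM in agonist-treated cells, 0.751, 0.723 and 0.832 TPM in antagonist-treated cells and 0.515, 0.536 and 0.677 TPM in blank cells. NEUROG1, a neurogenic bHLH factor, was at 0.163, 0.128 and 0.148 TPM in agonist-treated cells, 0.184, 0.251 and 0.233 TPM in antagonist-treated cells and 0.0271, 0.0734 and 0.134 TPM in blank cells. All 3 antagonist libraries lay above all 3 blank libraries in 5 of the 19 members that were not expressed (FOXI3, ZC3H14, NEUROG1, NEUROD2 and NKX6-3), against 17.3% of the 539 listed genes that were not expressed. They lay below in 0 of the 19, against 1.67%. Genes listed at 0 throughout can lie on neither side, and these were 7 of the 19 members and 52 of the 539 genes. IRX1, a patterning factor, ranged from 0 to 0.132 TPM and IRX2, its neighbour, from 0 to 0.202 TPM. FOXI1 of ionocytes was at 0.144 TPM in antagonist replicate 3 and SOX10 of the neural crest at 0.0225 TPM in antagonist replicate 2, and both were at 0 elsewhere.

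Several low members, and HOXD11 and HOXC8 of the expressed ones, had values close to whole steps. Ratios of low genes between libraries gave the relative worth of 1 fragment in TPM, which was 1.03, 1.03 and 1.08 in the agonist libraries, 1.14, 1.11 and 1.18 in the antagonist libraries and 1.2, 1.09 and 1.00 in the blank libraries, relative to blank replicate 3. After division by this worth, 5 of 23 members with at least 2 values above 0 lay within 5% of whole multiples of a step, and within 0.25 of it, with at most 10 steps and the smallest value above 0 at 1 step. The size of the step was chosen within 5% of that smallest value, as the size that brought the values nearest to whole multiples. The step was therefore fitted to the same values that were judged by it. NEUROD2, a neuronal bHLH factor, had 1 step in agonist replicates 1 and 3 and in all 3 antagonist libraries, and 0 in agonist replicate 2 and all 3 blank libraries. HOXD11 had 1, 5 and 0 steps in agonist-treated cells, 8, 5 and 3 in antagonist-treated cells and 6, 3 and 3 in blank cells. HOXC8 had 7, 4 and 1 in agonist-treated cells, 6, 2 and 1 in antagonist-treated cells and 7, 6 and 5 in blank cells. Its value farthest from a whole step lay 0.24 of a step away, near the limit of 0.25. How many genes would meet these limits by chance was not tested. NKX6-3, a factor of the stomach lining, was at 0, 0.362 and 0 TPM in agonist-treated cells, 0.136, 0.259 and 0.142 TPM in antagonist-treated cells and 0, 0 and 0.115 TPM in blank cells, and both it and IRX2 had at most 3 steps. A step may hold more than 1 fragment, so these are not read counts. If the steps hold, the levels of NEUROD2, NKX6-3 and IRX2 rest on few distinct values, and that of HOXD11 on at most 8 steps. In NEUROD2 the antagonist and blank groups differed by 1 step. NKX6-3 had 1 step in antagonist replicates 1 and 3 and in blank replicate 3, so these groups, apart in TPM, met in steps. FOXI3 also overlapped after division by the worth, at 0.650 to 0.706 in the antagonist libraries and 0.677 in blank replicate 3.

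**Figure D2:**
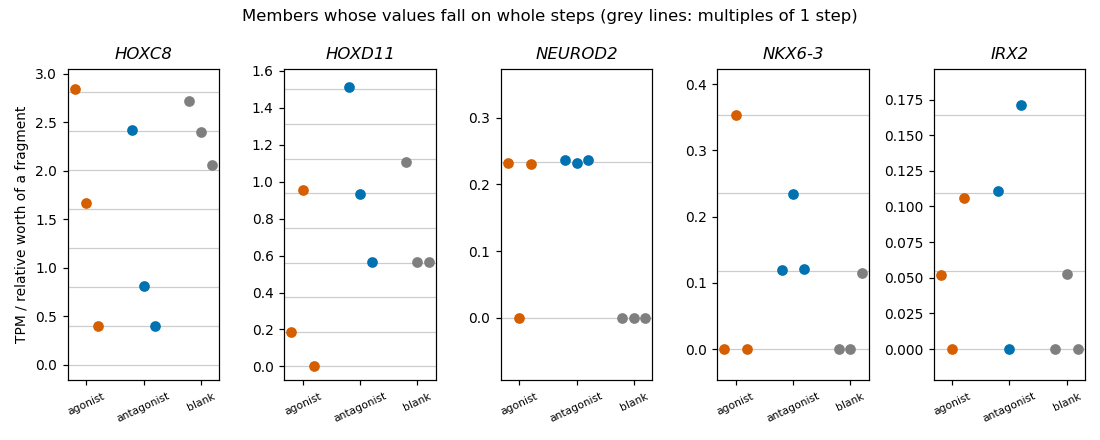
TPM divided by the relative worth of a fragment, by group, for the 5 members whose values fall near whole steps. Grey lines mark multiples of each gene's step. NEUROD2 has values at 0 and 1 step only, and HOXD11 reaches 8 steps and HOXC8 7.

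The comparison of agonist-treated with antagonist-treated cells set a drug that stimulates the GnRH receptor against one that blocks it. The activity of the receptor in these cells is not given. Transcripts of ZNF276, ZNF341, ZC3H6, ZBTB24 and ZNF598 were lower in agonist-treated cells. ZNF341, for example, was at 1.67 ± 0.19 TPM in agonist-treated cells and 3.29 ± 0.21 TPM in antagonist-treated cells (mean ± SD, n = 3 each). No member passed as higher in agonist-treated cells. In limma (log2(TPM + 1), all 9 libraries, Benjamini-Hochberg over 832 genes), 5 of the 14 tested members passed an adjusted p of 0.05, or 35.7%, all lower, against 25.6% of all tested genes, 23.9% lower and 1.68% higher. The 5 were all zinc finger members, of 11 tested, and 0 of the 3 HOX genes passed. Without adjustment 7 members had a p under 0.05, against 43.1% of all tested genes.

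The whole table leaned the same way. The median log2 fold change of agonist against antagonist was -0.34 over the 14 members and -0.21 over all 832 genes, and 9 of the 14 lay below that median. Relative to it the 5 called members stood at -0.48 for ZNF341, -0.43 for ZNF276, -0.31 for ZC3H6, -0.21 for ZBTB24 and -0.19 for ZNF598. Upper quartile, median of ratios and quantile scaling moved the median of all genes to -0.03, 0.03 and 0.02, and 3, 2 and 1 members then passed, all lower. The relative worth of a fragment also differed between these groups, at 1.03 to 1.08 in agonist-treated cells and 1.11 to 1.18 in antagonist-treated cells. With it in the model, a choice made after seeing the data, no member and 4 of all genes passed in limma, at log2 fold changes of -0.22 to -0.62 for the 5 called members. The worth did not overlap between these groups, but the fit used all 9 libraries. The blank libraries spanned both groups, at 1.2, 1.09 and 1.00. In them ZNF341 fell with the worth, at 2.70, 1.92 and 1.49 TPM, as did ZNF598, from 2.29 to 1.57 TPM. ZNF276 was nearly equal there, and ZBTB24 did not follow the worth, at 4.94, 5.18 and 4.54 TPM. ZC3H6 was at 5.22, 3.97 and 3.97 TPM. How far the fit separates the worth from the treatment was not tested. ZNF276 and ZBTB24 lost their calls at -0.62 and -0.41, close to the -0.63 and -0.42 of the main fit. The other 3 called members moved closer to 0 in that fit. ZNF341 went from -0.69 to -0.46, ZC3H6 from -0.52 to -0.35 and ZNF598 from -0.40 to -0.22.

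**Figure D3:**
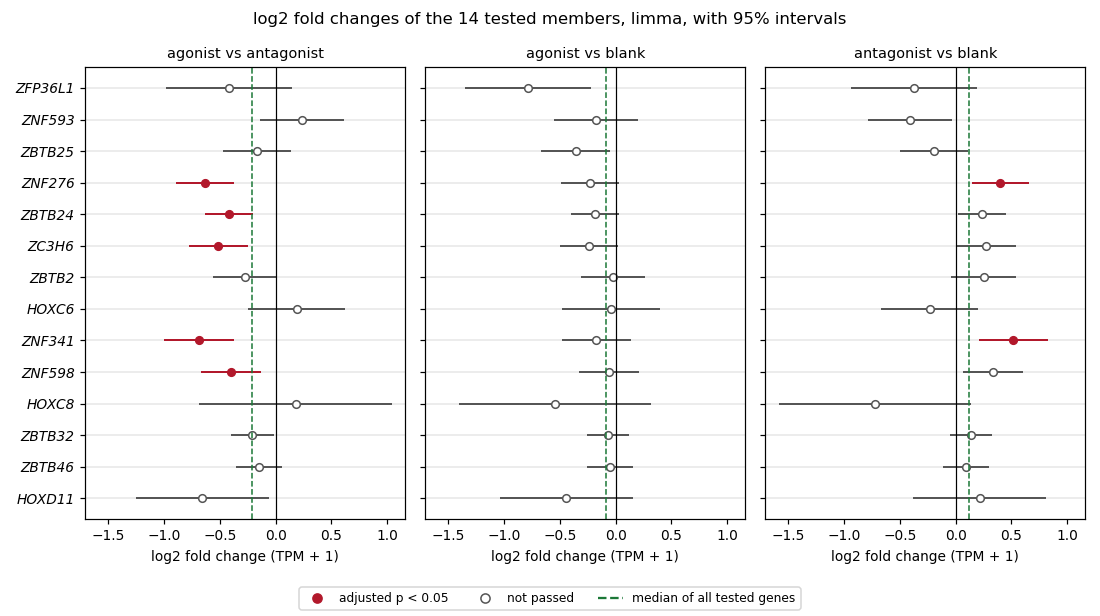
log2 fold changes of TPM + 1 of the 14 tested members in 3 comparisons, from limma, with 95% intervals before adjustment; filled points passed an adjusted p of 0.05 and the dashed line is the median of all 832 genes. In agonist against antagonist 5 members passed, all lower, in antagonist against blank 2, both higher, and in agonist against blank none.

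ZNF276, a C2H2 zinc finger gene, was at 3.97, 4.58 and 4.16 TPM in the agonist libraries and at 5.82, 7.92 and 7.78 TPM in the antagonist libraries. The groups did not overlap. Groups failed to overlap for 8 of the 14 members, 8 lower and 0 higher in agonist-treated cells, against 44.8% and 3.12% of all tested genes, 48% in all. The log2 fold change of ZNF276 was -0.63 ± 0.11 (SE; adjusted p = 0.0105, limma), and it was -0.84 and -0.47 in the 2 flow cells shared by both groups. It was -0.37 with median of ratios and -0.39 with quantile scaling, where the call was lost. In the RefSeq annotation ZNF276 overlaps FANCA, a DNA repair gene, and whether strand was used is not given, so reads of the overlap cannot be told apart. FANCA was at 0.818, 0.957 and 0.671 TPM in agonist-treated cells and 1.08, 1.27 and 1.63 TPM in antagonist-treated cells, a log2 fold change of -0.36 (adjusted p = 0.0380, limma). It reached 1 TPM only in the antagonist libraries, so it entered the test only through the group where it was highest. That call rests partly on the filter and is no separate support for ZNF276.

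ZNF341 was at 1.50, 1.87 and 1.63 TPM in the agonist libraries and at 3.50, 3.09 and 3.27 TPM in the antagonist libraries, with a wide gap between the groups. Its log2 fold change was -0.69 ± 0.14 (SE; adjusted p = 0.0117, limma), and it was -0.71 and -0.61 within the flow cells. It was the only member that passed under all 3 scalings, at -0.53, -0.47 and -0.38.

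ZBTB24 was at 4.15, 4.27 and 4.10 TPM in agonist-treated cells and 6.31, 6.25 and 5.24 TPM in antagonist-treated cells. The agonist libraries were nearly equal and antagonist replicate 3 was the nearest to them. Its log2 fold change was -0.42 ± 0.09 (SE; adjusted p = 0.0156, limma), and its call was lost under all 3 scalings, with values of -0.23, -0.16 and -0.16. ZC3H6, of the CCCH family, was at 3.10, 3.83 and 3.72 TPM in agonist-treated cells and 5.41, 5.13 and 5.95 TPM in antagonist-treated cells. It differed by -0.52 ± 0.12 (SE; adjusted p = 0.0156, limma) on the log2 scale and lost its call with quantile normalization, at -0.20. ZC3H6 also overlaps another locus in the RefSeq annotation, so the limit given for reads of ZNF276 holds for it too.

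ZNF598, the ribosome-linked ubiquitin ligase, was at 1.94, 1.52 and 2.01 TPM in agonist-treated cells and 2.91, 2.47 and 2.76 TPM in antagonist-treated cells. The groups did not overlap. Its log2 fold change was -0.40 ± 0.12 (SE; adjusted p = 0.0333, limma). The call was lost under all 3 scalings, at -0.24, -0.18 and -0.11, with flow cell as a term, at -0.38, and in 5 of 9 fits without 1 library. Values of the other 9 tested members did not pass. They were -0.66 for HOXD11, -0.42 for ZFP36L1, -0.27 for ZBTB2, -0.21 for ZBTB32, -0.16 for ZBTB25, -0.15 for ZBTB46, 0.18 for HOXC8, 0.19 for HOXC6 and 0.24 for ZNF593. The sign for HOXC8 turned without agonist replicate 1 or antagonist replicate 3.

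The count changed with single libraries. Of the members, 0 passed without agonist replicate 1 (limma; 15 of all genes passed there), only ZBTB24 without antagonist replicate 3, and only ZNF276 and ZNF341 without antagonist replicate 1. Between 4 and 6 passed without any one of the other 6 libraries. Without agonist replicate 1 the 5 members called in the main fit had log2 fold changes of -0.415 to -0.643. Their adjusted p was 0.0517 to 0.0832 there (limma). Without agonist replicate 2, ZFP36L1 and HOXD11 were among those that passed, both lower, and ZNF598 was not. HOXD11 had entered the test only through antagonist replicates 1 and 2 and blank replicate 1. Its remaining agonist values were 0.193 and 0 TPM, so that call rests partly on the filter. Without antagonist replicate 2, ZNF593 also passed, higher in agonist-treated cells (log2 fold change 0.44, adjusted p = 0.0463 in limma).

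**Figure D4:**
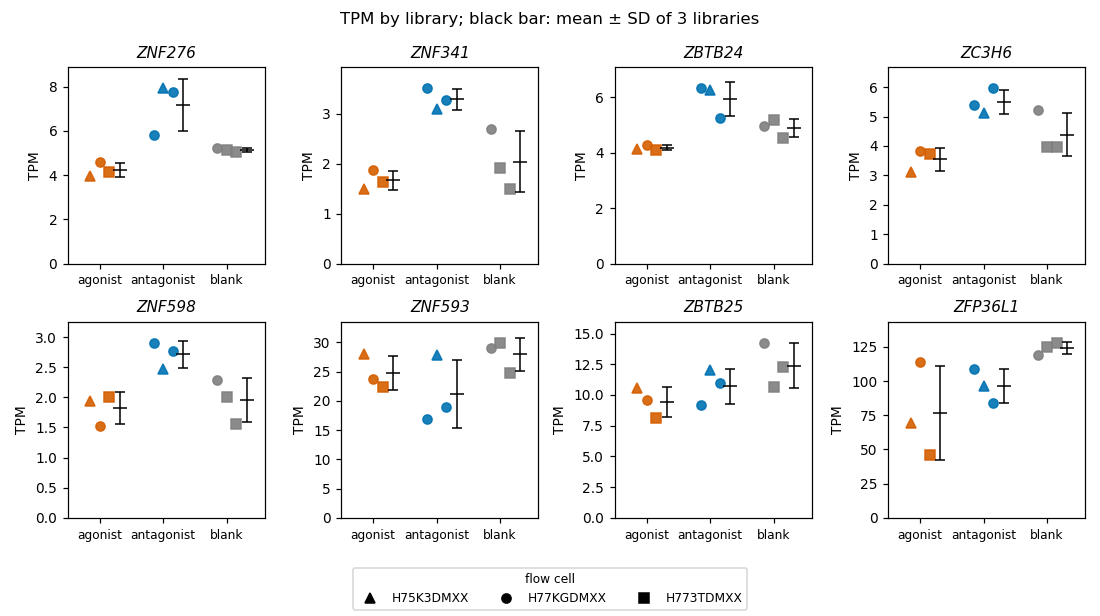
TPM by library of 8 zinc finger members in agonist, antagonist and blank cells, with symbols for the 3 flow cells and black bars for mean ± SD of 3 libraries. In ZNF276, ZNF341, ZBTB24, ZC3H6 and ZNF598 all 3 agonist libraries lie below all 3 antagonist libraries; in ZFP36L1 the blank libraries, at 119 to 128 TPM, lie above the other 6.

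The comparison of antagonist-treated with blank cells set the antagonist against the control. ZNF341 and ZNF276 were higher in antagonist-treated cells, both close to the threshold of the test, and no other member passed. ZNF341 was at 3.50, 3.09 and 3.27 TPM in the antagonist libraries and 2.70, 1.92 and 1.49 TPM in the blank libraries. Blank replicate 1 lay nearest to the antagonist libraries. The log2 fold change was 0.52 ± 0.14 (SE; adjusted p = 0.0458, limma). ZNF276 was at 5.82, 7.92 and 7.78 TPM in antagonist-treated cells and 5.23, 5.13 and 5.06 TPM in blank cells. Its blank libraries were nearly equal and the groups did not overlap. The log2 fold change was 0.40 ± 0.11 (SE; adjusted p = 0.0490, limma), and that of FANCA was 0.38 (adjusted p = 0.0499, limma). FANCA passed the filter only through the antagonist libraries, so its call rests partly on the filter here too.

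In limma 2 of the 14 members passed, or 14.3%, against 11.1% of all tested genes, 10.2% higher and 0.841% lower. The median log2 fold change was 0.18 over the members and 0.12 over all genes, relative to which ZNF341 stood at 0.40 and ZNF276 at 0.29. Without adjustment 6 members had a p under 0.05, against 30.3% of all tested genes. Groups did not overlap for 5 members that were higher in antagonist-treated cells and 1 that was lower, against 26.2% and 7.69% of all tested genes. Blank replicate 1 shared its flow cell with antagonist replicates 1 and 3, and within that flow cell the log2 differences were 0.25 for ZNF341 and 0.31 for ZNF276. With the flow cell in the model 0 members and 0 of all genes passed in limma, and the log2 fold changes were 0.39 for ZNF341 and 0.38 for ZNF276. Neither passed with a pseudocount of 0.1 or 0.5, without a filter on low values, with only the 2 groups, or with median of ratios (0.38 for ZNF341, 0.24 for ZNF276) or quantile scaling (0.27 and 0.26). The antagonist libraries are the same as in the comparison above.

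Other members did not pass. ZNF598 was at 2.71 ± 0.22 TPM in antagonist-treated cells and 1.95 ± 0.36 TPM in blank cells, which is a log2 fold change of 0.34 (adjusted p = 0.0847, limma). ZC3H6 was at 0.28, ZBTB2 at 0.25, ZBTB24 at 0.23, HOXD11 at 0.22, ZBTB32 at 0.14 and ZBTB46 at 0.09. Below 0 were HOXC8 at -0.72, ZNF593 at -0.41, ZFP36L1 at -0.37, HOXC6 at -0.23 and ZBTB25 at -0.19. ZNF593 averaged 21.2 ± 5.8 TPM in antagonist-treated cells and 27.9 ± 2.8 TPM in blank cells (adjusted p = 0.127, limma). Within flow cell H77KGDMXX its log2 difference was -0.67. With flow cell as a term it was -0.58 and did not pass (adjusted p = 0.106, limma). With library weights ZNF593 passed at -0.49 (adjusted p = 0.0267, limma). Without blank replicate 1, 5 members passed, all higher (ZNF276, ZC3H6, ZBTB2, ZNF341 and ZNF598). Without agonist replicate 2 the same 2 passed, and without any one of the other 7 libraries 0 did in limma.

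The comparison of agonist-treated with blank cells set the agonist against the control. No member passed, and none had a log2 fold change above 0 in the main fit, which used TPM without further scaling. In limma 0 of 14 members and 0% of all genes passed, and 2 members had an unadjusted p under 0.05, against 12.3% of all tested genes. The median log2 fold change was -0.18 over the members and -0.08 over all genes, and relative to the latter 9 members were lower and 5 higher. Upper quartile, median of ratios and quantile scaling moved the median of all genes to 0.006, 0.013 and 0.015. That of the members became -0.10, -0.09 and -0.10, and 0 members passed. The listed genes held 2.88% to 3.10% of the total in agonist libraries and 3.18% to 3.26% in blank libraries. Groups did not overlap for 5 members lower and 0 higher in agonist-treated cells, against 10.6% and 1.32% of all tested genes. The median half-width of a member's 95% interval was 0.29 on the log2 scale.

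ZFP36L1 was furthest from 0, at 76.5 ± 34 TPM in agonist-treated cells and 124 ± 4.5 TPM in blank cells (mean ± SD, n = 3 each). Its log2 fold change was -0.79, with a 95% interval of -1.34 to -0.23 before adjustment (adjusted p = 0.275, limma). The flow cells differed: in H77KGDMXX agonist replicate 2 was 0.07 below blank replicate 1 on the log2 scale, at 114 and 119 TPM, and in H773TDMXX agonist replicate 3 was 1.44 below the mean of blank replicates 2 and 3. Without agonist replicate 2 it passed, with a log2 fold change of -1.12 (adjusted p = 0.0119, limma). ZBTB25 was at 9.43 ± 1.2 TPM in agonist-treated cells and 12.4 ± 1.8 TPM in blank cells, which is a log2 fold change of -0.36 (adjusted p = 0.306, limma), and its groups did not overlap.

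The remaining members lay closer to 0 or varied more. HOXC8 was at -0.54, with a 95% interval of -1.40 to 0.31, and HOXD11 at -0.44, with one of -1.03 to 0.14. ZC3H6 was at -0.24, ZNF276 at -0.23, ZBTB24 at -0.18, and ZNF593 and ZNF341 at -0.17 each. ZBTB32, ZNF598, ZBTB46, HOXC6 and ZBTB2 were between -0.07 and -0.02. These values share the blank libraries with the comparison of antagonist and blank, and the agonist libraries with that of agonist and antagonist.

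The 19 members that were not expressed did not enter these tests. In limma without a filter on low values none of them passed in any of the 3 comparisons, where 182, 0 and 14 of 1371 genes passed for agonist against antagonist, agonist against blank and antagonist against blank. The nearest were NEUROG1 and NEUROD2 for antagonist against blank. NEUROG1 differed by 0.18 on the log2 scale (adjusted p = 0.0639, limma), and NEUROD2, at 0.269, 0.258 and 0.278 TPM in antagonist-treated cells and listed at 0 in each blank library, had an adjusted p of 0.0676 in limma.

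Other transcription factor families were looked at for comparison through a list of 227 genes, of which 27 were in the table and 19 were tested. For agonist against antagonist 1 passed as higher (ID4, an inhibitor of bHLH factors), 5 as lower (EGR1, E2F8, CBFB and MAF among them) and 13 did not pass, against 25.6% of all tested genes that passed. The median log2 fold change was -0.14 over the 19 and -0.21 over all tested genes. E2F8, a cell cycle repressor, averaged 6.28 ± 0.36 TPM in agonist-treated and 9.48 ± 0.65 TPM in antagonist-treated cells (mean ± SD, n = 3 each). MAF, a bZIP factor, averaged 220 ± 18 TPM in agonist-treated and 283 ± 11 TPM in antagonist-treated cells. For antagonist against blank 3 passed as higher (EGR1, E2F8 and CBFB) and 1 as lower (ID4), against 11.1% of all tested genes that passed, and the median was 0.06 over the 19 and 0.12 over all tested genes. E2F8 and CBFB were close to the threshold there, each with an adjusted p of 0.0490 in limma. With flow cell as a term 0 of all tested genes passed in that comparison, so these calls were lost. For agonist against blank 0 of the 19 passed in limma.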

How the data were processed

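A series table of TPM values was deposited by the authors, with a column for each of the 9 libraries. The submitters' processing notes list CASAVA 1.8.2, TopHat2 2.1.0, Cufflinks 2.2.1, StringTie 1.2.2 and Cuffdiff and give them no roles. Genome build, annotation and strand use: not given in the sources used here. Per the labels' protocols, Trizol RNA went into NEBNext Ultra libraries.

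The 832 of 1371 genes with at least 1 TPM in 3 or more libraries were tested on log2(TPM + 1), a scale that understates changes of low genes. limma 3.58.1 (R 4.3.3) fitted the 3 groups over all 9 libraries, with a variance trend and Benjamini-Hochberg adjustment within each comparison. The method was tested on simulated data with independent noise for each gene and no shift shared within a library or flow cell. That test therefore does not cover scaling, flow cell or the worth of a fragment. An exact test of 3 against 3 libraries cannot go below p = 0.1 and was not used. The relative worth of a fragment is the most frequent ratio to blank replicate 3 among 441 genes averaging under 0.5 TPM. In the other libraries it rested on 14 to 30 of 271 to 283 ratios, those within 0.01 of it on the log2 scale. Flow cells (H75K3DMXX, H77KGDMXX and H773TDMXX) are those in the labels. RefSeq symbols of the Taihu goose assembly served for names and neighbours. Alternatives were other pseudocounts, filters, scalings and covariates, library weights, fits of 2 groups, and leaving out each library.

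The members and lists were chosen with earlier results of these data known. Genes named by rule were every called member, the 3 members with the smallest p on each side of 0 in each comparison, the 10 highest, the highest of each family, the 3 nearest to 1 TPM on each side, those listed at 0 and called genes of the comparison list; FANCA, H2AFX and members added to complete an account were chosen after their values were seen. Values of 1 low member and of 1 gene of the comparison list are not reported here.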

Additional observations from a re-analysis of the deposited data

How the results depend on the processing

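Of the 17 log2 fold changes followed under each alternative that kept the gene (a mean of at least 5 TPM dropped the lower ones), only that of HOXC8 for agonist against antagonist turned its sign, ranging from -0.16 without agonist replicate 1 to 0.58 without agonist replicate 3, with -0.11 without antagonist replicate 3. The number of expressed members was 6 at a limit of 5 TPM. For agonist against antagonist the counts of called members and of all called genes were 1 and 86 with a mean of at least 5 TPM, 3 and 117 with upper quartile scaling, 2 and 118 with median of ratios scaling, 1 and 52 with quantile normalization, 8 and 369 with library weights, and 0 and 4 with the worth of a fragment as a term; flow cell as a term gave 132 genes. Leaving out 1 library gave 0 to 6 members and 15 to 295 genes. For antagonist against blank the counts were 0 and 42 with a pseudocount of 0.1, 0 and 61 with 0.5, 0 and 14 without a filter, 0 and 26 with a mean of at least 5 TPM, 0 and 0 with flow cell as a term, 0 and 59 with median of ratios scaling, 0 and 41 with quantile normalization, 7 and 348 with library weights, and 1 and 50 with the worth of a fragment; 1 member passed with upper quartile scaling and 0 with only the 2 groups. Leaving out 1 library gave 0 to 5 members and 2 to 212 genes. For agonist against blank, library weights gave 12 genes, and leaving out 1 library gave 0 to 1 members and 0 to 67 genes. The causes were not tested, except that fewer members (4) were tested with a mean of at least 5 TPM.

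With the replicate number as a block, 5 members passed for agonist against antagonist, 0 for agonist against blank and 0 for antagonist against blank, where 27 of all genes did; both called members of that last comparison had an adjusted p of 0.0703 in limma. For antagonist against blank HOXC8 also stood at 0.0703 with this block, against 0.230 in the main fit (adjusted p, limma). Libraries with the same number correlated at -0.12 to 0.22 in their deviations from the group means, and 3 of 9 such pairs were over 0.1. Even so, 7 of 9 libraries correlated best with their own number. Whether the number marks a pairing cannot be told from the labels, so the main fit was made without it. The TPM values carry no read depth, which leaves the precision of low members unknown.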

Other observations

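The summed TPM of the 33 members was 104 to 177 in agonist libraries, 153 to 176 in antagonist libraries and 194 to 201 in blank libraries. Without ZFP36L1, sums were 57.7 to 66.1 in agonist libraries, 66.3 to 79.6 in antagonist libraries and 66.2 to 81.5 in blank libraries. EVX2, a homeobox gene near HOXD11 and HOXD12 in the RefSeq annotation and outside the prefixes, was at 0.420, 0.432 and 1.34 TPM in agonist libraries, 1.28, 1.06 and 1.11 TPM in antagonist libraries and 0.992, 1.19 and 0.703 TPM in blank libraries; it was chosen after its values were seen.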
